A study of Mus musculus with 6 samples.

Results

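Irf8, Klf4, Cebpb and Gfi1 encode 4 transcription factors that steer myeloid progenitors towards different mature cells. They were taken by gene symbol from a deposited PRO-seq table, which gave 4 of its 2744 genes and 6 of its 3022 transcript rows, since Klf4 and Gfi1 each have 2 annotated transcripts. PRO-seq maps transcribing RNA polymerase, by letting isolated nuclei add biotinylated nucleotides to their unfinished transcripts for a short time, here 3 min, and sequencing the RNA that took them up. The cells were cKIT+ bone marrow progenitors of female mice of the C57/BL6 strain with the genotype Mllt3 flox/flox Rosa26Cre+. They had been transduced with wild-type MLLT3 (the WT group, 3 libraries) or with MLLT3 K63E K67E, in which lysines are replaced by glutamate (the DM group, 3 libraries). Both groups were sorted and then grown for 8 days in methylcellulose with 200 nM 4-hydroxytamoxifen, which induced the deletion of the endogenous gene, and with the interleukins mIL-3, mIL-6 and mIL-11, the myeloid factor mGMCSF, hEPO, hTPO, and the stem cell factors mSCF and mFlt3L. Every library thus came from cells with an introduced MLLT3 in which deletion of the endogenous gene had been induced, and no library of untransduced cells entered the comparison; the promoter that drives the introduced MLLT3 is not given in the sources used here. MLLT3 is a reader of acylated histones that belongs to complexes acting on transcript elongation, and the series title places the study's question in blood cell formation. All 6 libraries carry the same batch label, and the labels do not say whether replicates came from separate animals or cultures, so the p-values measure the spread between these libraries, which may be technical.

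IRF8 directs progenitors to the monocyte and dendritic cell fates and restrains neutrophil production, and KLF4 acts with it in monocyte differentiation. GFI1 is a zinc finger repressor required for neutrophil development, and it silences genes of the monocyte programme. C/EBPβ is the factor used when granulocytes are produced on demand, for instance under cytokine stimulation, and it also serves monocytes and macrophages, so it belongs to neither fate alone. Irf8 and Klf4 are treated below as the monocyte factors, and Gfi1 and Cebpb as the granulocyte factors.

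For each transcript the authors counted reads in a head window of 330 bp, which began 30 bp upstream of the annotated start and holds polymerase paused near the promoter, and in the body, which is the remainder of the transcript with its introns. The sequence around each start is shown because the head windows of Irf8, Klf4 and Cebpb begin within it. Most of each of these head windows lies downstream of the sequence shown. The Gfi1 bases shown lie inside its head window. Windows of 280 bases, from 250 before to 30 after the RefSeq start, are given 5′ to 3′ on the gene's own strand from the GRCm38.p6 RefSeq promoter table, in which all 4 genes were found; a further downstream start of Irf8 and of Gfi1 in that table held no match and is not shown. Capitals mark matches to any of 7 short motifs searched on both strands: TATAAA (the TATA box), CCGCCC (SP factors), GGGTGGG (KLF factors), TTGCNNAA (C/EBP factors), GAAANNGAA (IRF factors), GAGGAAGT (PU.1 and ETS factors) and AATCACNGC (GFI1). The Irf8 window lies at chr8:120736108-120736387 on the plus strand, the Klf4 window at chr4:55532446-55532725 on the minus strand and the Cebpb window at chr2:167688665-167688944 on the plus strand. For Gfi1 only the 30 bases around its single match are shown, at chr5:107725930-107725959 on the minus strand.
Irf8: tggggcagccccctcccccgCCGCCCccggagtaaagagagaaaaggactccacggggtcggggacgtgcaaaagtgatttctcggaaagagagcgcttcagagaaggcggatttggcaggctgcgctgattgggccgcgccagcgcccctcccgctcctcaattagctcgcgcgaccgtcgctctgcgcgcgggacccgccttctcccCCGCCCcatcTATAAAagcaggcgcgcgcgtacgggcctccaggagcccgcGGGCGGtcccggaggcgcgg
Klf4: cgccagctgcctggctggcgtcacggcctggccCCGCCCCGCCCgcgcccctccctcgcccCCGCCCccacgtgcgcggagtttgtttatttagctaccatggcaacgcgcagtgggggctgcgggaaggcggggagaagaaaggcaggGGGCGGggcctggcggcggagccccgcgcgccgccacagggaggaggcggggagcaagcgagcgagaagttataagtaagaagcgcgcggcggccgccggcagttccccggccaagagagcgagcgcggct
Cebpb: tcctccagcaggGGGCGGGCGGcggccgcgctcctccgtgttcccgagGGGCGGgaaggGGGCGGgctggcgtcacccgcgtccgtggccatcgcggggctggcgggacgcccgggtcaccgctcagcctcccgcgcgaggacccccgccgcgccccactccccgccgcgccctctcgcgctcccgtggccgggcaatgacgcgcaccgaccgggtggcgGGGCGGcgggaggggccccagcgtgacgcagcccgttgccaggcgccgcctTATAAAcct
Gfi1: cgaaggtaggtTTGCTGAActgctgtgcct

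G or C made up 69.3% of the Irf8 window, 73.6% of the Klf4 window, 79.6% of the Cebpb window and 58.2% of the Gfi1 window. The windows are not placed alike. The RefSeq start of Gfi1 lies 231 bp downstream of the deposited start, so most of its window is inside the deposited transcript. The RefSeq starts of the other genes lie within 9 bp of theirs. No share of G or C over all windows is given, and a link to the direction of change was not tested. CCGCCC occurred 3 times at Irf8, 4 times at Klf4 and 5 times at Cebpb, with overlapping copies at the last pair of genes, and not at Gfi1; it is a common word, present in 34.7% of 32851 RefSeq windows of the same length. Irf8 had TATAAA 31 bases before its start, while the TATAAA of Cebpb lay 21 bases after the RefSeq start; 13.1% of windows hold these letters. The Gfi1 match is TTGCNNAA, found in 10.4% of windows, and it lies 143 bases before the RefSeq start and 88 bases after the start of the deposited transcript, inside the head window. None of the 4 windows held the IRF, KLF, PU.1 and ETS, or GFI1 letters, which occur in 8.06%, 16.9%, 2.82% and 0.865% of windows. A match describes letters only.

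The library totals deposited with the counts ranged from 15112853 reads, in WT replicate 2, to 22981603 reads, in WT replicate 1; how they were counted is not given in the sources used here, and every RPM level below rests on them. WT replicate 2 also stood apart in its heads: over all genes it held 23.7 head reads per 100 body reads, against 12.7 to 14.9 in the other libraries. Kit, the gene of the sorted receptor, had 1266 ± 259 body reads per 1000000 of the library total (RPM) in WT cells and 657 ± 8.53 in DM (mean ± SD, n = 3 each). Kit alone does not name the cells. In WT the progenitor markers Gata2 and Cd34 stood at 1312 ± 169 and 41.7 ± 12.5 RPM. The mast cell and basophil markers Il1rl1 and Cpa3 stood at 801 ± 215 and 767 ± 262 RPM. Every row held had been called changed on body counts by the authors, with a largest adjusted p of 0.0498. A body difference in these 4 genes is therefore what brought them into the table, and its tests are descriptions. The head reads of the main transcripts played no part in that call, though they come from the same genes and libraries. The head windows of Klf4-202 and Gfi1-201 lie inside the longer transcript's body, so their reads entered the call and their head tests are descriptions too.

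Irf8, Klf4 and Cebpb carried more polymerase in their bodies in DM than in WT, and Gfi1 carried less. The rises were 2.58-fold for Irf8, 2.82-fold for Klf4 and 2.05-fold for Cebpb, and Gfi1 was 1.68-fold lower. Both monocyte factors thus rose, and the granulocyte factors went opposite ways. These are folds of counts scaled to the library totals; the background is that 57.4% of the 2721 genes tested were higher in DM and 42.1% lower at an adjusted p under 0.05 by edgeR's quasi-likelihood test, so passing it sets no gene apart. In bulk libraries, more cells transcribing a gene and more polymerase per cell cannot be told apart.

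Irf8 (ENSMUSG00000041515.10, chr8:120736358-120756694, plus strand) had body counts of 262, 286 and 479 in WT replicates 1 to 3 and of 1072, 783 and 920 in DM replicates 1 to 3. Scaled to the totals this was 17.1 ± 5.03 RPM in WT and 43.9 ± 4.50 RPM in DM. Every DM library stood above every WT library, as was so for 57.3% of genes tested. The log2 change was 1.36 (SE 0.207; edgeR adjusted p = 6.26e-04), which placed Irf8 at rank 159 from the top of 2721 genes, and the authors' deposited table gives 1.33 for it. Its head held 255, 309 and 350 reads in WT cells and 644, 527 and 620 in DM cells, or 15.6 ± 4.68 and 28.4 ± 2.49 RPM. The head groups did not overlap either, as was so for 18.1% of 2579 genes in that direction. Its head log2 change was 0.87 (SE 0.268; edgeR adjusted p = 0.0330).

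Irf8 was the only gene of the 4 whose main transcript's head passed the test, where 9.62% of 2579 genes passed upwards and 10.7% downwards. Those were 524 genes, a count that ran from 14 without DM replicate 1 to 942 without WT replicate 2 (311 without WT replicate 3, 850 without WT replicate 1, 207 without DM replicate 2 and 110 without DM replicate 3). The call of Irf8 was lost with the authors' size factors (adjusted p = 0.0752) and without WT replicate 3 (0.104), DM replicate 1 (0.134), DM replicate 2 (0.0908) or DM replicate 3 (0.168).

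Klf4 (ENSMUSG00000003032.8, chr4:55527143-55532466, minus strand) had the largest body change of the 4. Its longer transcript, Klf4-201, had body counts of 304, 288 and 276 in WT cells and of 1088, 688 and 846 in DM cells, or 14.8 ± 3.75 against 41.3 ± 6.86 RPM. No WT library reached the lowest DM library, replicate 2, and 57.3% of genes tested were likewise higher in every DM library. The log2 change was 1.49 (SE 0.193; edgeR adjusted p = 2.88e-04), rank 103 from the top. Its head held 371, 634 and 500 reads in WT cells and 1247, 796 and 1008 in DM cells. Scaled to the totals, the groups overlapped at 26.6 ± 13.6 and 48.1 ± 7.87 RPM, since WT replicate 2 lay above DM replicate 2. The head log2 change of 0.86 (SE 0.316) missed the threshold at an edgeR adjusted p of 0.0648. Without WT replicate 2, the library rich in head reads, it was 1.34 (adjusted p = 1.13e-04). That was the only library whose removal brought a pass, and with others left out the edgeR adjusted p rose to 0.236.

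The shorter transcript, Klf4-202, starts 696 bp downstream, so its head window lies inside the body of Klf4-201. That window held 55, 60 and 55 reads in WT cells and 219, 143 and 163 in DM cells, which is 2.92 ± 0.907 against 8.27 ± 1.26 RPM. All DM libraries were above all WT libraries. With every transcript row fitted, its log2 change was 1.52 (SE 0.286; edgeR adjusted p = 0.00594, a description since these reads are part of the Klf4-201 body), in a fit that called 10.0% of 2846 rows higher. Its body counts were 208, 173 and 180 in WT cells and 731, 437 and 552 in DM cells, but they are largely those of Klf4-201 read again. The 365 bp between the longer row's head and the shorter row's head had 41, 55 and 41 reads in WT cells and 138, 108 and 131 in DM cells, a density of 6.59 ± 2.93 and 16.4 ± 1.67 RPM per kilobase (RPKM). That stretch was therefore higher in DM by 1.31 on the log2 scale, with no overlap between groups. The stretch and the Klf4-202 head are both part of the Klf4-201 body, so their separation is a description. No share without overlap over such stretches is given.

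Cebpb (ENSMUSG00000056501.3, chr2:167688915-167690418, plus strand) is a short gene with a body of 1202 bp. Its body counts were 1090, 1306 and 1271 in WT cells and 2923, 2374 and 2816 in DM cells, or 63.1 ± 20.6 against 129 ± 11.8 RPM. WT replicate 2 was the highest WT library at 86.4 RPM and still lay below the lowest DM library at 117 RPM. Such a gap upwards was found for 57.3% of genes tested. The log2 change was 1.03 (SE 0.204; edgeR adjusted p = 0.00214), rank 436 from the top. Its head held 664, 685 and 639 reads in WT cells and 1183, 1063 and 1179 in DM cells, or 34.0 ± 9.78 against 54.5 ± 3.96 RPM. The head groups did not overlap, as was so for 18.1% of 2579 genes in that direction. The head log2 change of 0.68 (SE 0.249) missed the threshold at an edgeR adjusted p of 0.0633. It was 0.94 (adjusted p = 1.73e-04) without WT replicate 2. No other single library left out gave a pass, and the edgeR adjusted p reached 0.257 without DM replicate 3.

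Gfi1 (ENSMUSG00000029275.18, chr5:107716657-107726036, minus strand) ran the other way. Its longer transcript, Gfi1-204, had body counts of 634, 837 and 1061 in WT cells and of 521, 582 and 505 in DM cells. Scaled to the totals, the WT libraries stood at 27.6, 55.4 and 46.4 RPM and the DM libraries at 22.8, 28.8 and 25.3 RPM. WT replicate 1 fell within the DM range while the other WT libraries lay well above it, so the groups overlapped, unlike those of the 38.3% of genes that were lower in every DM library. The log2 change was -0.75 (SE 0.229; edgeR adjusted p = 0.0136), rank 461 from the bottom, and it ranged from -0.99 without WT replicate 1 to -0.53 without WT replicate 2 (adjusted p = 0.0470).

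The Gfi1-204 head was thin, with 81, 102 and 144 reads in WT cells and 73, 67 and 74 in DM cells, or 5.52 ± 1.75 against 3.40 ± 0.266 RPM. Here too WT replicate 1 lay among the DM libraries, whereas 23.4% of genes had heads lower in every DM library. The head log2 change of -0.69 (SE 0.292) missed the threshold at an edgeR adjusted p of 0.0990, and it was -0.94 (adjusted p = 0.00711) without WT replicate 1. With any other single library left out the Gfi1-204 head did not pass, and the edgeR adjusted p ran as high as 0.281. Gfi1-201 starts 1693 bp downstream and its head had 59, 96 and 112 reads in WT cells and 59, 60 and 47 in DM cells (log2 change -0.79, SE 0.325, edgeR adjusted p = 0.0896). The 1362 bp between the 2 head windows held 205, 253 and 378 reads in WT cells and 174, 185 and 165 in DM cells. Their density, 10.3 ± 3.27 RPKM in WT and 6.12 ± 0.565 RPKM in DM, was about 3.1 times that of the shorter transcript's body in both groups (3.12 and 3.09). They made up 32.7% of the long transcript's body reads in WT and 32.6% in DM, a difference smaller than the SDs of 2.72 and 0.807 percentage points.

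**Figure D1:**
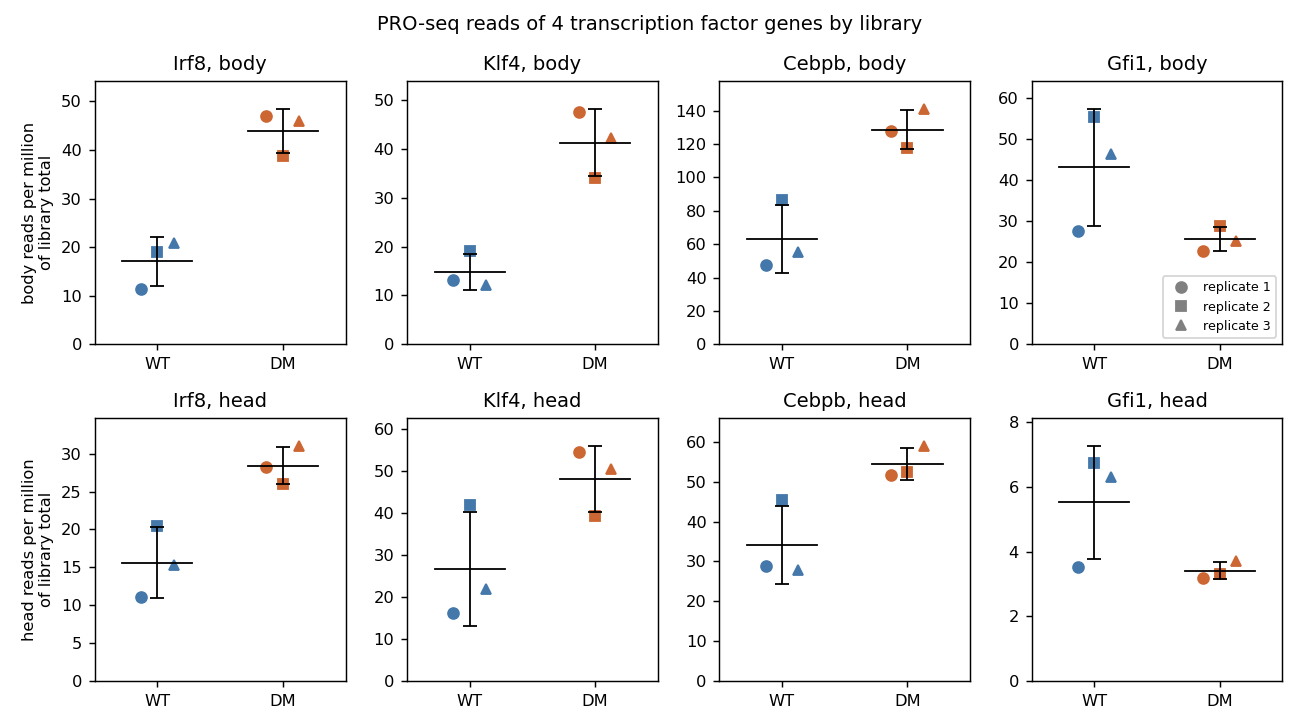
Body reads (top) and head reads (bottom) in RPM for the main transcript of each gene; points are libraries, with a shape for each replicate number, horizontal bars are means and error bars SD (n = 3). The bodies of Irf8, Klf4 and Cebpb were higher in every DM library, as were those of 57.3% of genes tested. WT replicate 1 of Gfi1 (27.6 RPM) lay within the DM range.

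Per kilobase, Cebpb had by far the densest body, at 52.5 ± 17.1 RPKM in WT and 107 ± 9.79 RPKM in DM. In WT the other genes followed in the order Gfi1 (4.75 ± 1.56 RPKM), Klf4 (2.94 ± 0.746 RPKM) and Irf8 (0.853 ± 0.251 RPKM), where the libraries of Gfi1 and Klf4 overlapped. In DM the order was Klf4 (8.23 ± 1.37 RPKM), Gfi1 (2.82 ± 0.331 RPKM) and Irf8 (2.19 ± 0.225 RPKM). Within each WT library Gfi1 was denser than Klf4 (3.04 against 2.63 RPKM in replicate 1, 6.10 against 3.79 in replicate 2 and 5.11 against 2.40 in replicate 3). Within each DM library it was less dense. Mean head densities followed another order, with Cebpb at 103 and 165 RPKM in WT and DM, Klf4 at 80.8 and 146, Irf8 at 47.3 and 86.1, and Gfi1 at 16.7 and 10.3. The heads of Cebpb and Klf4 overlapped, and in DM replicate 1 Klf4 was the denser (165 against 157 RPKM).

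The genes differed greatly in how much of their polymerase lay at the start. The head was 56.3 ± 10.9 times as dense as the body at Irf8 in WT and 26.5 ± 7.52 times at Klf4-201, but 3.53 ± 0.191 times at Gfi1-204 and 1.99 ± 0.205 times at Cebpb. In DM these density ratios were 39.4 ± 2.55 at Irf8, 17.7 ± 0.360 at Klf4-201, 3.68 ± 0.457 at Gfi1-204 and 1.54 ± 0.0800 at Cebpb. At their main transcripts both monocyte factors thus had denser heads relative to their bodies than both granulocyte factors, in every library of both groups. This was not so of the downstream starts, where Klf4-202 had 4.01 ± 0.540 in WT and 4.03 ± 0.227 in DM, and Gfi1-201 had 4.12 ± 0.478 and 4.05 ± 0.501. The Gfi1-204 head window is placed by a start 231 bp upstream of the RefSeq start. In WT the stretch just beyond that window held 10.3 RPKM, against 16.7 in the head. The part of window placement in the low Gfi1-204 ratio was not tested.

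In counts, Irf8 had 97.3, 108 and 73.1 head reads for every 100 body reads in WT cells and 60.1, 67.3 and 67.4 in DM. Klf4-201 had 122, 220 and 181 in WT cells and 115, 116 and 119 in DM cells. Cebpb had 54.5 ± 5.62 in WT cells and 42.4 ± 2.20 in DM. In all 3 genes every DM library was below every WT library, as was so for 22.2% of 2577 genes. In the test of region by group, the log2 change of the head to body ratio was -0.50 for Irf8 (95% interval -1.04 to 0.05, edgeR adjusted p = 0.358), -0.54 for Klf4 (adjusted p = 0.350) and -0.36 for Cebpb (adjusted p = 0.445). None passed, in a test that called 0.0776% of genes; the median over all genes was -0.26 (-0.07 without WT replicate 2), and 395 genes had an unadjusted p under 0.05, of which 349 were lower in DM.

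At Gfi1-204 the groups overlapped, with 12.8 ± 0.695 head reads for every 100 body reads under WT and 13.4 ± 1.66 in DM. Its ratio changed by 0.05 on the log2 scale (95% interval -0.50 to 0.61, edgeR adjusted p = 0.935), and the difference from the other 3 genes was not tested. WT replicate 2, with its surplus of head reads over all genes, had the highest ratio of the WT libraries at Irf8 and Klf4-201 and the lowest at Gfi1-204. At the downstream Klf4-202 start the ratio was 30.6 ± 4.12 in WT cells and 30.7 ± 1.73 in DM.

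**Figure D2:**
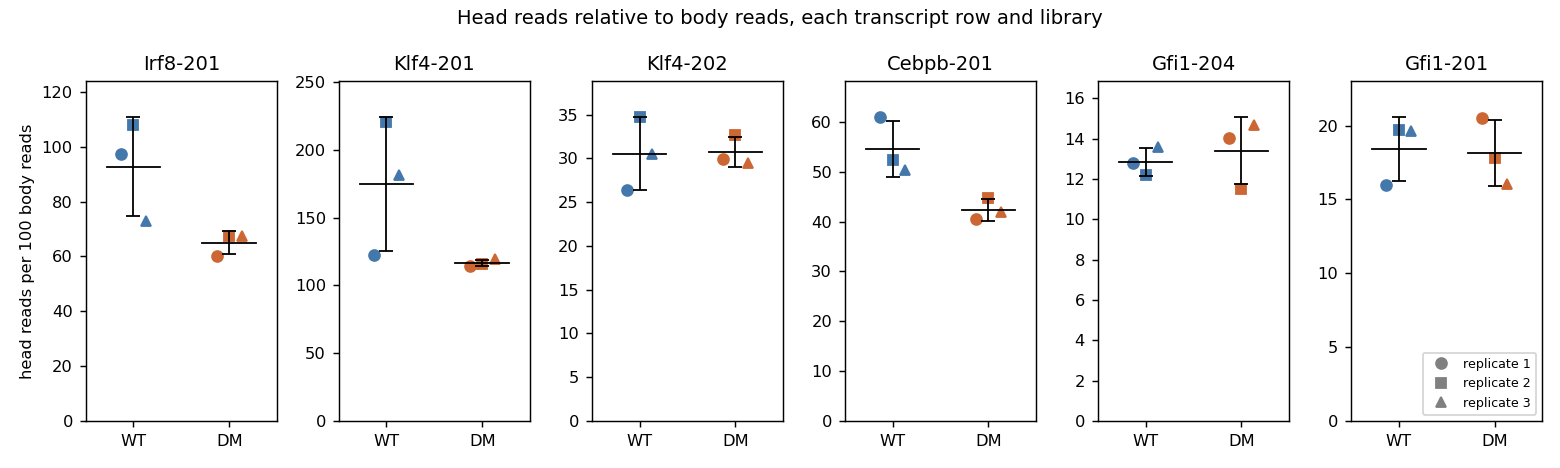
Head reads per 100 body reads for each of the 6 transcript rows (points are libraries, bars are means with SD, n = 3; each panel has its own axis from 0). Irf8-201, Klf4-201 and Cebpb-201 were lower in every DM library, while Klf4-202 and both Gfi1 rows overlapped between groups.

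The head changes of the 4 genes, 0.87 (Irf8), 0.86 (Klf4), 0.68 (Cebpb) and -0.69 (Gfi1), were at rank 304, 308 and 405 from the top and 498 from the bottom of 2579 genes. The median head change over these genes was -0.11 (0.10 without WT replicate 2) and the median body change 0.40. The body median depends on the scaling: it fell by 0.21 with TMM factors computed on these rows and by 0.33 with DESeq2's own size factors, and the head median rose by 0.09 with either. All 4 body directions and calls held under both.

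**Figure D3:**
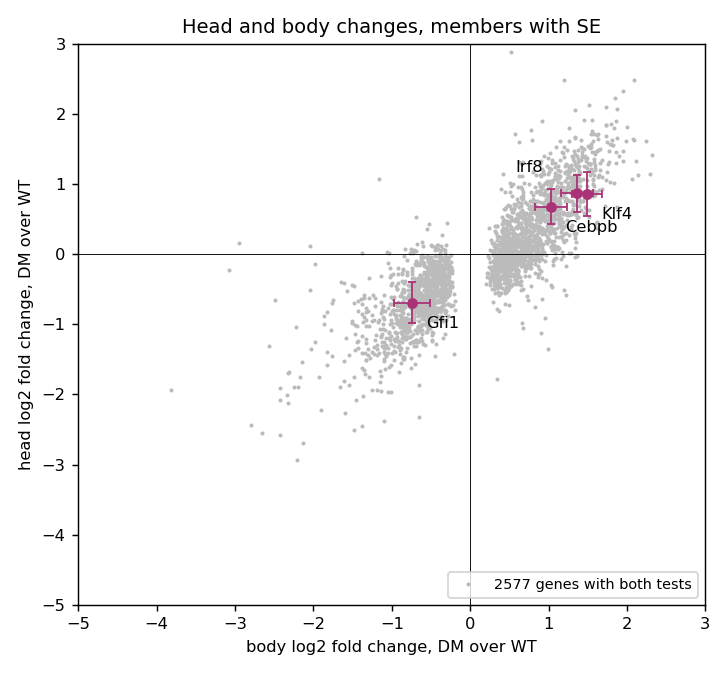
Log2 fold change of head counts against that of body counts, DM over WT, for 2577 genes with both tests (grey points) and the 4 factor genes (coloured points with SE). Irf8, Klf4 and Cebpb lie at the upper right and Gfi1 at the lower left; every row held had been called on body counts, and no gene lies near 0 on the body axis.

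The balance between monocyte and granulocyte factors was read within each library, where the scaling cancels. Irf8 body reads over Gfi1 body reads came to 0.413, 0.342 and 0.451 in WT cells and 2.06, 1.35 and 1.82 in DM, a 4.29-fold shift of the geometric means. Klf4 over Gfi1 came to 0.479, 0.344 and 0.260 in WT cells and 2.09, 1.18 and 1.68 in DM, a 4.58-fold shift. In every WT library Gfi1 had more body reads than either monocyte factor, and in every DM library fewer. The ratio's own level depends on the lengths of the 2 bodies, but its change between libraries does not. Per kilobase, Gfi1 stayed denser than Irf8 in every DM library. The densities were 2.51 against 2.34 RPKM in replicate 1, 3.17 against 1.93 in replicate 2 and 2.78 against 2.30 in replicate 3. Head reads gave smaller shifts, 2.93-fold for Irf8 over Gfi1 and 3.04-fold for Klf4 over Gfi1, again with no overlap between groups. Irf8 and Klf4 had been called higher on body counts and Gfi1 lower, so these body ratios were bound to move. No share of other gene pairs without overlap is given, so the separation is a description.

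Over Cebpb, the ratios moved by smaller folds. Irf8 over Cebpb was 0.240, 0.219 and 0.377 in WT cells and 0.367, 0.330 and 0.327 in DM, and the groups overlapped (1.26-fold). Klf4 over Cebpb was 0.279, 0.221 and 0.217 in WT cells and 0.372, 0.290 and 0.300 in DM, a 1.34-fold shift without overlap in body reads but with overlap in head reads (1.19-fold). Cebpb itself rose 3.41-fold relative to Gfi1, from 1.72, 1.56 and 1.20 in WT to 5.61, 4.08 and 5.58 in DM. Within the monocyte pair the groups overlapped, with Klf4 over Irf8 at 0.914 ± 0.303 in WT cells and 0.938 ± 0.0699 in DM. No test was run on these ratios, because the genes were chosen with their changes known, and an exact test of 3 libraries against 3 cannot go below p = 0.1.

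**Figure D4:**
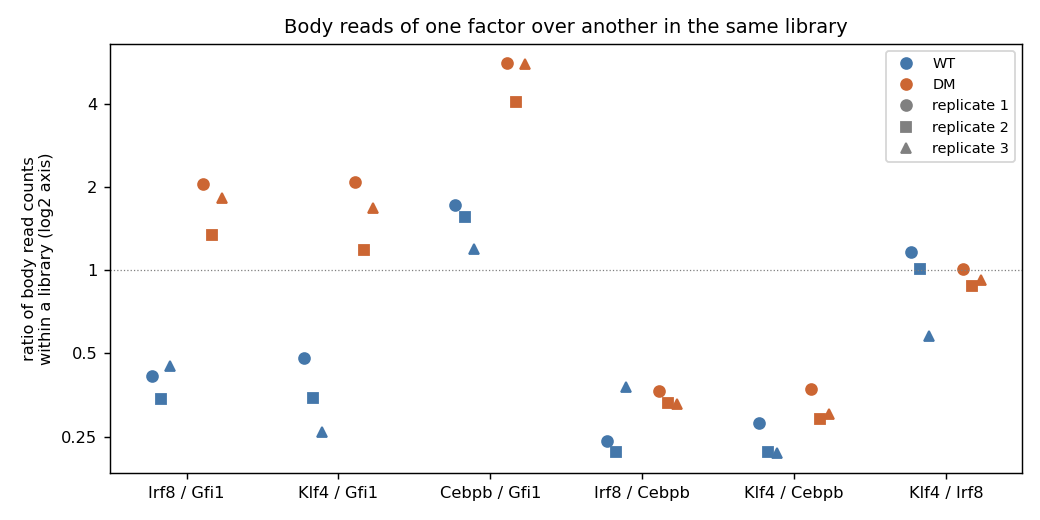
Ratio of body read counts of 2 factors within a library (log2 axis; blue WT, orange DM; shapes are replicate numbers; the dotted line marks equal counts). The 3 ratios over Gfi1 separate the groups, with Irf8 over Gfi1 at 0.342 to 0.451 in WT and 1.35 to 2.06 in DM, whereas Irf8 over Cebpb and Klf4 over Irf8 overlap.

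The relatives of each factor that the table holds were followed in the same way; their lists were drawn up from general knowledge, and genes of a list outside the table were not analysed here. Of the other C/EBP genes, 1 of 4 was held: Cebpd, a companion of Cebpb in granulocyte differentiation, whose body rose from 31.3 ± 13.5 to 70.0 ± 5.75 RPM (log2 change 1.17, edgeR adjusted p = 0.00342). Its head change was 0.41 (edgeR adjusted p = 0.406), but 1.06 (adjusted p = 6.06e-05) without WT replicate 2 and 0.58 (adjusted p = 0.0276) with DESeq2's own size factors. No other setting gave a pass. The Cebpd head change was 0.17 without WT replicate 1 and 0.16 without WT replicate 3, and the edgeR adjusted p reached 0.789 over the libraries left out. Of 8 other IRF genes, Irf2 and Irf5 were held and both bodies rose, by 0.53 and 0.68 on the log2 scale, though Irf2 did not pass with DESeq2's own size factors (0.20, adjusted p = 0.149). Irf5, which drives inflammatory genes in macrophages, also rose in its head (0.80, edgeR adjusted p = 0.0394), a call lost with the authors' size factors (adjusted p = 0.0790) and without WT replicate 3 (0.0935) or when any 1 DM replicate was left out (0.122 to 0.187).

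Of 16 other KLF genes 4 were held and 3 had enough reads to be tested. Klf13 (0.60) and Klf7 (0.33) rose in their bodies and Klf8 (-0.57) fell, whereas none of their heads passed. The rise of Klf7 was not there with DESeq2's own size factors (-0.0030). Gfi1b, the paralogue of Gfi1 that acts in red cell and platelet precursors, was held from a list of 7 relatives and corepressors. Its body fell with that of Gfi1, from 20.6 ± 6.36 to 12.5 ± 2.67 RPM (log2 change -0.72, edgeR adjusted p = 0.0208), a call lost without WT replicate 2 (adjusted p = 0.0803), WT replicate 3 (0.0795), DM replicate 1 (0.0622) or DM replicate 3 (0.0711).

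**Figure D5:**
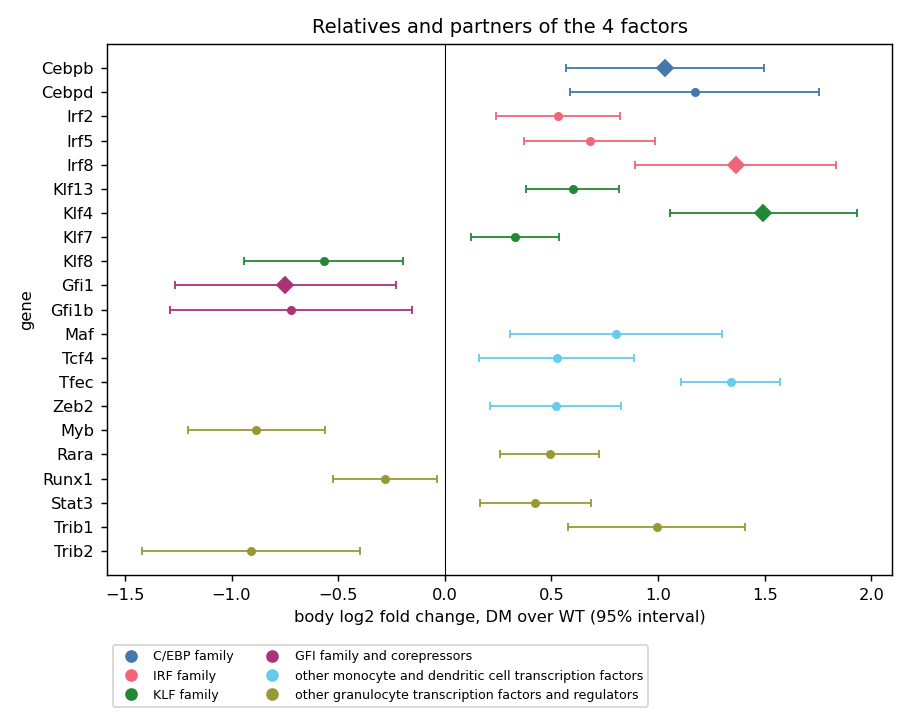
Body log2 fold change, DM over WT, with its 95% interval for the 4 factor genes (diamonds) and for the tested members of the lists of relatives and of other lineage transcription factors (circles, coloured by list). The C/EBP and IRF genes lie above 0, Gfi1 and Gfi1b below 0, and the other granulocyte regulators on both sides.

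Among 15 other transcription factors of monocytes and dendritic cells, 4 were held and all 4 bodies rose: Tfec by 1.34, Maf by 0.80, Tcf4 by 0.52 and Zeb2 by 0.52 on the log2 scale, with a median of 0.66. With TMM factors 3 of them passed, and with DESeq2's own size factors only Tfec did. Tfec, a macrophage factor related to MITF, had 50.6 ± 2.21 RPM in WT and 128 ± 10.2 RPM in DM, and its head was the only one of the 4 to pass (1.66, edgeR adjusted p = 0.0145; 0.107 without DM replicate 1). With TMM factors, with DESeq2's own size factors and without WT replicate 2, 3 of the 4 heads passed. Among 13 other granulocyte factors and regulators, 7 were held, of which 4 rose and 3 fell, with a median of 0.42 (3 and 3 with TMM factors, 2 and 3 with DESeq2's own). Cebpd, Rara, Stat3 and Trib1 rose, and Trib2, Myb and Runx1 fell. Trib1, which triggers the breakdown of C/EBPα protein, rose in body (0.99) and head (1.37, edgeR adjusted p = 0.00649; 0.0584 without DM replicate 1). Myb, a progenitor factor, fell in body from 93.2 ± 12.4 to 50.6 ± 7.71 RPM (-0.88) and in head (-1.56, edgeR adjusted p = 0.00761; 0.0631 without DM replicate 1). Runx1 fell by 0.28 on the log2 scale (edgeR adjusted p = 0.0301), a call lost when any 1 DM replicate was left out (adjusted p from 0.0638 to 0.105). The background was 57.4% of genes higher and 42.1% lower. The granulocyte list, with 4 of 7 higher and 3 lower, lay near it, so its count is no result about the list. The monocyte list, all higher, is only 4 genes from rows that had all been called changed. The difference between the lists was not tested.

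Most held effector genes of both lineages rose in their bodies, where 57.4% of all genes were higher and 42.1% lower. Of 17 monocyte and macrophage effectors 8 were held and 8 rose (median 1.26; 6 with DESeq2's own size factors), among them Lyz2, the macrophage and granulocyte lysozyme (49.3 ± 15.9 to 208 ± 24.3 RPM), Ctss (1.64) and Adgre1, which encodes F4/80 (0.98). Of 19 granulocyte effectors 7 were held, of which 6 rose and Ctsg, a protease gene of early granules, fell (47.0 ± 2.72 to 26.2 ± 4.94 RPM; median of the 7, 1.24). Mmp8, a collagenase of neutrophil granules, rose from 25.7 ± 9.01 to 87.1 ± 6.24 RPM and S100a8 from 17.7 ± 6.73 to 50.7 ± 7.42 RPM. In their heads 4 of 8 monocyte effectors and 3 of 6 granulocyte effectors passed upwards, where 9.62% of all genes did. These counts rest on single libraries: the monocyte list had 1 without DM replicate 1 and 2 without DM replicate 3. The granulocyte list had 1 without DM replicate 1, 5 higher and 1 lower without WT replicate 2, and 5 with TMM factors. Nearly all held effectors had higher bodies, while the 9.62% covers genes of either body direction. No share of heads among genes with higher bodies is given, so the head counts are no result about the lists.

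Of 12 genes known from other work to be repressed by GFI1, besides Irf8 and Gfi1, 6 were held and 5 tested. Of these, 3 bodies rose and 2 fell, shares near the background of 57.4% higher and 42.1% lower, so the count is no result about the list. Csf1r, the receptor that monocytes need for survival, rose from 38.6 ± 11.1 to 93.0 ± 8.16 RPM (1.27), as did Id1 (0.92) and Csf1 (0.43). Meis1, a self-renewal gene, fell from 334 ± 61.8 to 150.2 ± 4.91 RPM (-1.15), together with Gfi1b. With TMM factors 2 of these 5 were higher and 2 lower, since Csf1 no longer passed (0.22, adjusted p = 0.0858), and with DESeq2's own size factors 1 was higher and 2 lower.

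Held markers of several cell types are described beside the 4 genes. Like every row held, they had been called changed on body counts, so that they moved is no result. Of all genes tested, 57.4% were higher in DM and 42.1% lower. The summed body reads of the 5 held of 6 progenitor markers were 2513 to 3241 RPM in WT and 1527 to 1584 RPM in DM. The 2 held of 6 monocyte markers, Csf1r and Fcgr1, summed to 28.2 to 50.8 RPM in WT and 89.9 to 106 RPM in DM. Mmp8, the 1 held of 6 neutrophil markers, and Itgax, the 1 held of 6 dendritic cell markers, ran at 18.4 to 35.8 and 9.14 to 14.2 RPM in WT against 83.4 to 94.3 and 24.2 to 25.7 RPM in DM. The 3 held of 6 mast cell and basophil markers ran at 1188 to 2204 RPM in WT and 943 to 1018 RPM in DM, and the 2 held of 6 erythroid markers at 28.5 to 40.4 and 16.6 to 20.6 RPM. Among the WT libraries, Irf8, Gfi1 and Cebpb were lowest in replicate 1 and Klf4 in replicate 3. The monocyte (28.2 RPM), neutrophil (18.4 RPM), dendritic cell (9.14 RPM) and erythroid (28.5 RPM) sums were lowest in replicate 1 too. The progenitor and the mast cell and basophil sums were lowest in replicate 2. None of the 6 lymphoid markers was held. No held marker list summed to 0 in a library, and the part of cell composition in the changes of the 4 factors was not tested.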

How the data were processed

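PRO-seq libraries, 3 WT and 3 DM, gave nascent transcription per transcript. Per the submitters' processing notes the builds mm10 and dm3 and the tools cutadapt, Trimmomatic, Bowtie 1.1.2, MACS2 and bedtools 2.28 were used; their settings, the use of strand and the treatment of multiply mapped reads are not given in the sources used here. Without strand, reads of overlapping antisense transcripts cannot be told apart from those of a gene. Raw read counts per head and body window and a library total were deposited by the authors. RPKM values deposited by the authors were recomputed from them without a difference above rounding. The mean signal per row deposited by the authors is the mean of body counts over size factors, which were solved from it. Log2 fold changes and p-values of the body comparison were deposited by the authors.

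Where a gene had several transcripts, only that with most body reads on average was kept. Body counts, head counts and the head to body ratio (an interaction of region and group, with the library as a block) were each fitted with the quasi-likelihood test of edgeR 4.0.16, run in R 4.3.3 with limma 3.58.1, over all genes that passed filterByExpr (minimum count 10, minimum total 15), with group as the only other term. How the totals were counted and the role of dm3 are not given in the sources used here, so RPM levels and the median body change rest on them. Library sizes were the deposited totals, because every row held had been called changed and a factor computed from such rows rests on them. P-values were adjusted by Benjamini-Hochberg over all genes, with a threshold of 0.05. Intervals and SEs are those of the fit, and n is 3 per group. The scripts were tested on simulated data. Alternatives were TMM factors, the authors' size factors, DESeq2 1.42.0 with the totals or its own factors, every transcript row, no filter, the replicate number as a block, and each library left out.

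The 4 genes, the gene lists and the tests were chosen with earlier results of these data known. Genes named beyond them were, per list, up to 4 with the highest mean body RPM, and a few more chosen after their values were seen (Trib1, Trib2, Fcgr1, Itgax and Kit). For each factor the 3 genes with the highest Pearson correlation of log2 body RPM over the 6 libraries were named, among genes with a mean count of 100 or more. A gene of these lists is not reported here, and the counts leave it out. Same-numbered libraries did not deviate together (r = -0.04, -0.14 and 0.25). The labels do not say whether equal numbers pair the samples, and these correlations cannot settle it. Replicates of a group differed by more than sampling noise, and WT replicates more than DM replicates. Chi-square per degree of freedom was 25.6 to 40.4 between pairs of WT libraries and 2.66 to 6.83 between pairs of DM libraries. The edgeR fit shares a dispersion between the groups, so its SEs and p-values do not follow this difference.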

Additional observations from a re-analysis of the deposited data

How the results depend on the processing

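The body direction and call of all 4 factor genes held under every alternative run. Leaving out 1 library gave body log2 fold changes of 0.86 to 1.32 for Cebpb, 1.14 to 1.55 for Irf8, 1.37 to 1.71 for Klf4 and -0.99 to -0.53 for Gfi1. Head calls depended on the setting. With TMM factors the heads of Cebpb (0.77), Klf4 (1.02) and Gfi1 (-0.60, adjusted p = 0.0400) passed; with DESeq2 on the library totals Cebpb (0.68, adjusted p = 0.0458) and Klf4 (0.86, adjusted p = 0.0443) passed, and with its own factors Cebpb (0.77) and Klf4 (1.02). With the authors' size factors the head of Irf8 did not (0.83, adjusted p = 0.0752). Leaving out 1 library gave head changes of 0.55 to 0.94 for Cebpb, 0.67 to 1.11 for Irf8, 0.60 to 1.34 for Klf4 and -0.94 to -0.53 for Gfi1. The cause was not tested.

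With the replicate number as a block in the edgeR fit, 796 heads passed (375 higher, 421 lower), as against 524. Among them were Cebpb (0.71, adjusted p = 0.0287), Irf8 (0.91) and Klf4 (0.96, adjusted p = 0.00425), but not Gfi1 (-0.65, adjusted p = 0.0672). With the same block 38 ratios passed (5 higher, 33 lower). Heads passing came to 984 (496 higher, 488 lower) with TMM factors and 930 (465 higher, 465 lower) with DESeq2's own factors. Leaving out 1 library gave 14 to 942 heads, the lowest without DM replicate 1 and the highest without WT replicate 2 (10 to 579 higher, 4 to 590 lower). Bodies passing upwards came to 863 with DESeq2's own factors, as against 1562, and leaving out 1 library gave 2047 to 2652 bodies (1307 to 1555 higher, 711 to 1129 lower). Of the bodies called, 57.7% were higher in the main fit, 49.7% with TMM factors and 42.7% with DESeq2's own factors; of the heads called, 47.3% were higher, and 61.5% without WT replicate 2.

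DESeq2 called 37 ratios (2 higher, 35 lower), as against 2, and leaving out 1 library gave 0 to 82 (0 to 24 higher, 0 to 58 lower). No ratio of a factor gene passed in any setting: leaving out 1 library gave -0.42 to -0.28 for Cebpb, -0.66 to -0.37 for Irf8 and -0.78 to -0.35 for Klf4, and the Gfi1 ratio, near 0, ran from -0.014 without DM replicate 3 to 0.16. The log2 shifts of Irf8 and Klf4 body reads over Gfi1 were 1.55 and 1.60 in head reads, as against 2.10 and 2.20; leaving out 1 library they were 1.97 to 2.28 and 1.98 to 2.42, and 0.18 to 0.57 and 0.31 to 0.54 over Cebpb. The Klf7 body change turned to -0.0030 with DESeq2's own factors. Of 338 alternative body values of 26 other named genes, 22 changed their call or direction, and of 169 head values of 13 such genes, 27 did. Head counts of 67 to 144 a library limit what can be seen at Gfi1.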

Other observations

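Over the 6 libraries, the body of Irf8 followed that of Csf1r, the receptor for macrophage colony-stimulating factor, more closely than that of any other of 2483 genes (Pearson r of log2 RPM 0.9995). Csf1r stood at 26.1, 42.5 and 47.2 RPM in WT and 96.3, 83.7 and 99.0 RPM in DM, so that the low WT replicate 1 and the low DM replicate 2 of Irf8 recurred in it. Zmiz1 (r = 0.9989) and Wsb1 (r = 0.9988) came next. Cebpb was followed most closely by Vsir, Tgm2 and Slc66a2 (r = 0.997, 0.997 and 0.996), which like it were highest among WT libraries in replicate 2. Klf4 was followed by Dusp13, Sgpp1 and Zfp658 (r = 0.996, 0.995 and 0.995), and Gfi1 by Cd63, Shisa2 and Six5 (r = 0.994, 0.987 and 0.985). Among the 4 factors, r was 0.962 between Cebpb and Klf4, 0.930 between Cebpb and Irf8 and 0.916 between Irf8 and Klf4, and -0.44 to -0.65 between Gfi1 and the others. These correlations are descriptions over 6 libraries in 2 groups, which share depth and the group difference.

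Within 250 kb of the 4 genes, 5 other held genes had their start. Near Cebpb, the bodies of Tmem189 (27.4 kb away, 0.72), Ptpn1 (243 kb, 0.75) and 1200007C13Rik (145 kb, 1.31) were higher in DM, and 1200007C13Rik also had a higher head (log2 fold change 1.41, edgeR adjusted p = 0.0208). 1190005I06Rik, 102 kb from Irf8, was higher by 0.48 in its body, while Evi5, 143 kb from Gfi1 on the same strand, was higher in its body by 0.43 where Gfi1 was lower. The heads of Tmem189, Ptpn1, 1190005I06Rik and Evi5 did not pass.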
